A study of Homo sapiens with 16 samples.

Results

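The long arm of chromosome 7 (7q) carries a stretch of genes that code for a cell cycle kinase (CDK6), a histone methyltransferase (EZH2), the coat protein of caveolae (CAV1) and the kinase BRAF, among many others. The 58 genes described here were chosen as neighbours on 7q whose levels had been seen to shift in catalase-transfected clones of the A375 melanoma cell line. Of these, 53 had a value of their own, out of 18417 genes measured. BRAF, KRIT1 and AKR1B1 were not analysed here, because no probe group of the array's annotation carried their names. CAV2 and COPG2 shared a probe group with another gene, so no value was assigned to them.

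The measurements come from 16 whole-transcript expression arrays (Affymetrix Human Gene 1.0 ST), with 4 biological replicates in each of 4 groups. A375 cells are an amelanotic human melanoma line and were left untransfected. PCDNA3 cells are A375 cells carrying the empty pcDNA3 vector, and A7 and G10 cells are A375 cells stably transfected with the human catalase cDNA in that vector. A7 and G10 were each 1 clone, grown out by clonal dilution, and all transfected lines were selected and kept in geneticin. A clone differs from its parent line both by the transgene and by whatever the founding cell carried, and with 1 clone of each kind these cannot be told apart. The average of A375 and PCDNA3 cells was the control. Values are log2 intensities of transcript clusters, which are the array's groups of probes for 1 transcript, and a difference of 1 is a 2-fold change.

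As background, genes of 1 chromosome arm share its copy number, and a gain or loss of the arm tends to move many of their transcripts a little in the same direction, while single genes are also set by their own promoters. Gains and losses of whole arms are common in melanoma, and chromosome 7 holds BRAF, a kinase of the MAPK pathway. Copy number was not measured in these samples, so levels of RNA are all that is described below.

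The level of unexpressed genes was taken from the olfactory receptors, whose 95th percentile lay at 5.18. Of the 53 measured members, 51 had a mean over the 16 arrays above this level, and SGCE and PEG10 did not. CAT itself, the transfected gene, averaged 8.65 in the control, 9.02 ± 0.08 (SD, n = 4) in A7 and 8.27 ± 0.38 (SD, n = 4) in G10. Its cluster lay 0.37 above the control in A7 and differed by -0.38, a lower level, in G10. Neither difference passed the adjusted limit (limma, adjusted p = 0.12 in A7 and 0.053 in G10). Which parts of the transgene its probes detect was not analysed here. Of the melanocyte markers all 7 measured, among them SOX10, MITF and S100B, lay above the olfactory receptor level by mean, as did 2 of 5 keratinocyte, 5 of 6 fibroblast and 2 of 4 immune markers, with KRT5 and PTPRC below it. Arrays correlated at 0.9844 to 0.9949 within groups. In G10, replicates 1 and 2 correlated at 0.9941 and replicates 3 and 4 at 0.9918, while the pairs across reached 0.9844 to 0.9871, so the G10 arrays fell into 2 pairs. The A7 arrays did so to a lesser degree (0.9940 and 0.9949 within pairs, 0.9875 to 0.9926 across).

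Sequence just upstream of the transcription start is given for CDK6, EZH2 and CAV1, the members singled out by the question, and for TES, which had the lowest value of all members in A7 relative to the control. Each run is 200 bases long, 5′ to 3′ on the gene's strand, ends at the base before the outermost start in RefSeq (build GRCh38.p14), and has matches to the GC box (GGGCGG or CCGCCC) and to the CCAAT box (CCAAT or ATTGG) in capitals. The CDK6 run is chr7:92836574-92836773 on the minus strand, the EZH2 run chr7:148884292-148884491 on the minus strand, the CAV1 run chr7:116524809-116525008 on the plus strand and the TES run chr7:116210339-116210538 on the plus strand.
CDK6: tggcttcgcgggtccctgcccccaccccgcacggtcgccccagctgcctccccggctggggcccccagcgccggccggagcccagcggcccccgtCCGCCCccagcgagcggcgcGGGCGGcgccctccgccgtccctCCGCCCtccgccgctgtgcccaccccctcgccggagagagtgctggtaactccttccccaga
EZH2: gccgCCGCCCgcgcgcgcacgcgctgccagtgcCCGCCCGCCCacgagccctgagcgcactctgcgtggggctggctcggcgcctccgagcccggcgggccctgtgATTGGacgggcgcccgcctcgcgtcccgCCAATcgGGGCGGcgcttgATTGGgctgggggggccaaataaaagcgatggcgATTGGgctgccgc
CAV1: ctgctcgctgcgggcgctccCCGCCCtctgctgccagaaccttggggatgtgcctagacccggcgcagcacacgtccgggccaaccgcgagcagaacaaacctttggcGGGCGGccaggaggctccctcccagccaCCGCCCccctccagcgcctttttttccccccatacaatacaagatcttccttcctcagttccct
TES: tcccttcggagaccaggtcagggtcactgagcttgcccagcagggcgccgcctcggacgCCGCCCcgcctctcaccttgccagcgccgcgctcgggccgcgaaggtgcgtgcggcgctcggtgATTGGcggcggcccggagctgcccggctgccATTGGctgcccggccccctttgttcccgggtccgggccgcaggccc

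GC boxes were matched 3 times upstream of CDK6, 4 times upstream of EZH2, 3 times upstream of CAV1 and 1 time upstream of TES. The CCAAT box was matched 4 times upstream of EZH2, 2 times upstream of TES, and not at all in the CDK6 and CAV1 windows. Over all 35116 RefSeq promoters of the same length, 40.1% held a GC box and 28% a CCAAT box. Over 45 measured members, with 1 promoter each, the shares were 62.2% and 26.7%. EZH2 and TES thus shared both motifs and CDK6 and CAV1 held the GC box alone, which is a description of letters and not of factor binding.

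The first question was whether the 7q genes moved as one block in A7. Most members lay a little below the control, and 40 of the 53 did not pass the adjusted limit. In A7, 46 of the 53 members lay below the control and 7 above it, where 54.6% of all clusters lay below, with a median log2 difference of -0.23 and an interquartile range of -0.33 to -0.08. Over all genes above the olfactory receptor level, the median was 0.00 with an interquartile range of -0.11 to 0.13. At an adjusted p under 0.05 (limma), 12 members were lower, among them SGCE, which lay under that level in A7 and in the control, and 1 was higher, where 2.23% of all clusters were lower and 3.46% higher. In 17 members all 4 A7 arrays lay below all 8 control arrays, which held for 2.47% of all clusters. The members were chosen with this contrast known, so these counts describe the block and test nothing. In RNA from whole cultures, fewer cells expressing a gene and less RNA per cell cannot be told apart.

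In G10 the members were more spread out. Here 38 of the 53 lay below the control and 15 above it, where 57.9% of all clusters lay below, with a median of -0.19 and an interquartile range of -0.35 to 0.01. Over all genes above the level, the median was -0.01 and the interquartile range -0.18 to 0.20. At the adjusted limit 17 members were lower and 2 higher, where 7.9% of all clusters were lower and 9.92% higher. All 4 G10 arrays lay below all control arrays for 13 members, against 4.35% of clusters. Both clones were set against the same control arrays, so their differences are not independent of each other.

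**Figure D1:**
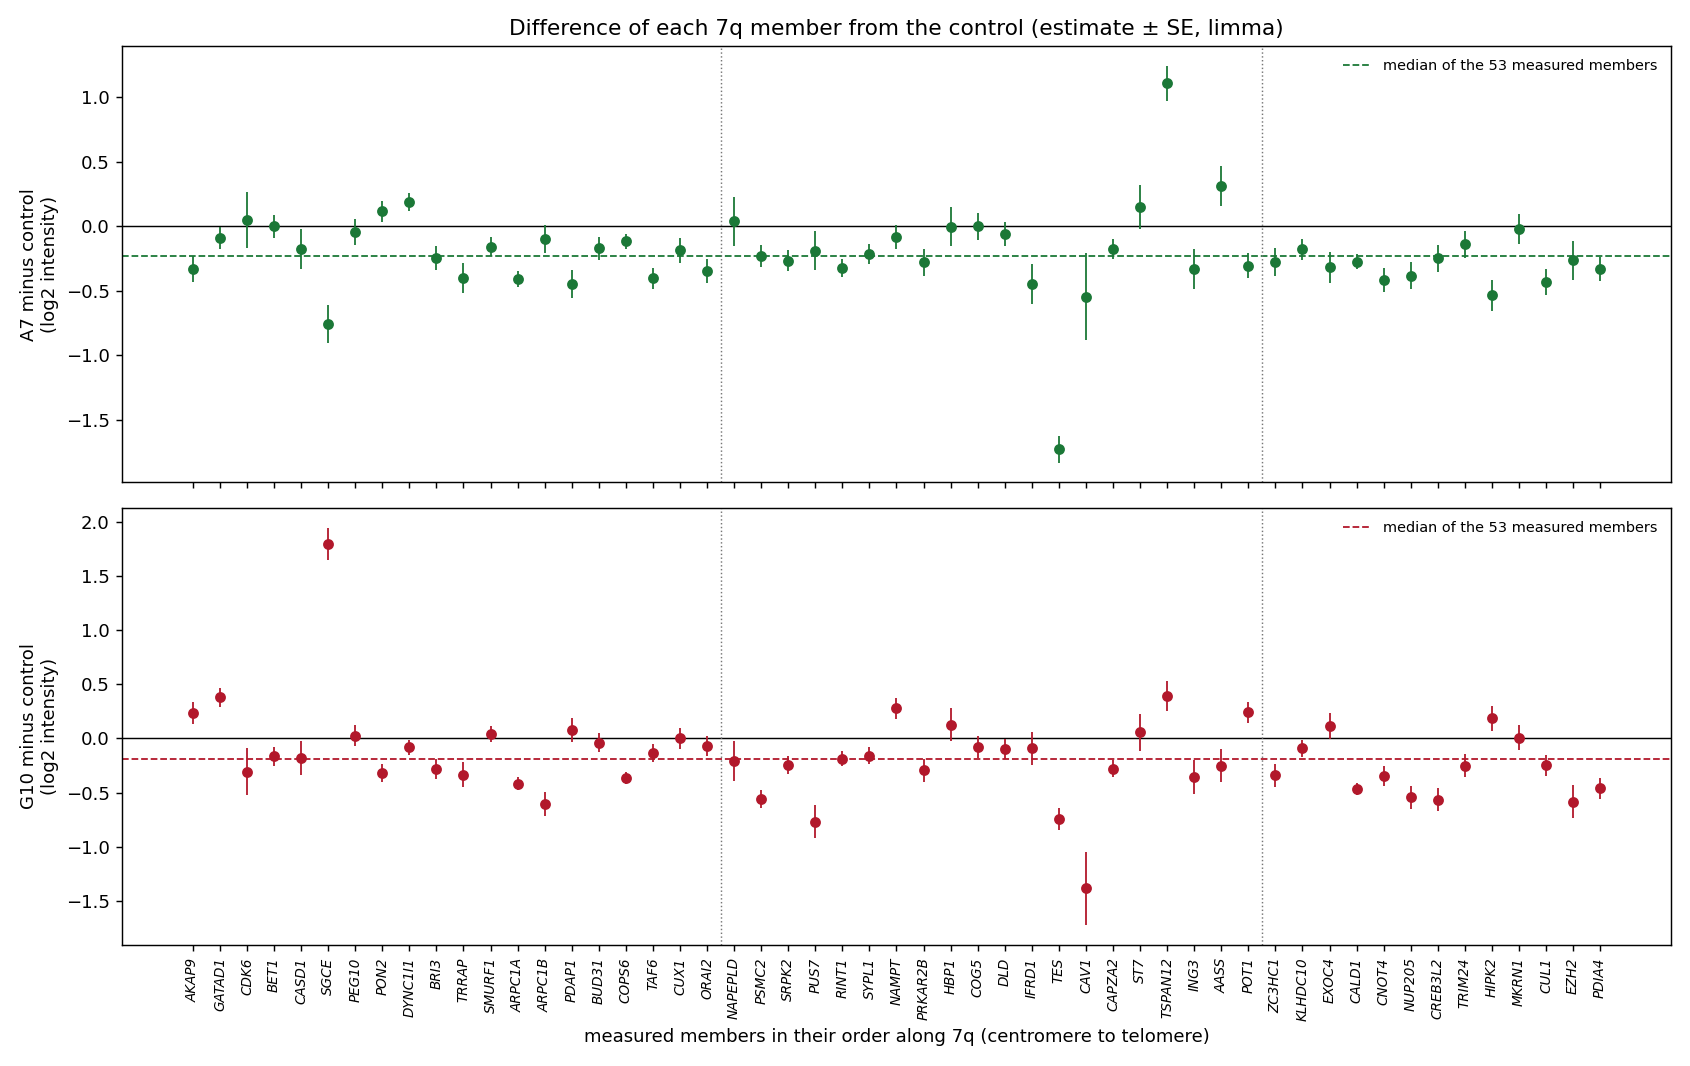
Log2 difference of A7 (top) and G10 (bottom) from the control for the 53 measured members in their order along 7q, as estimate ± SE of the limma fit with 4 arrays in each group; the dashed line is the members' median (-0.23 in A7, -0.19 in G10) and dotted lines part the 3 stretches of the list. Most points sit a little below 0, with TES, TSPAN12 and SGCE (under the olfactory receptor level in A7 and the control) far from the rest in A7 and CAV1 and SGCE far from it in G10.

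Array by array, the block was low in every A7 and G10 sample. The members' median against the mean of the control arrays was -0.20, -0.13, -0.25 and -0.27 in A7 replicates 1 to 4, and -0.25, -0.27, -0.17 and -0.12 in G10 replicates 1 to 4. The 8 control arrays ranged from -0.07 to 0.05, so neither clone overlapped the control. Without G10 replicates 1 and 2 the median of G10 was -0.15 with 11 members called lower, where 5.96% of all clusters were. Without replicates 3 and 4 it was -0.25 with 25 called lower, where 10.3% of all clusters were. The median of A7 was -0.29 without replicates 1 and 2 and -0.19 without replicates 3 and 4. The members called lower then numbered 5 and 2, with fewer arrays in the fit, where 1.01% and 1.36% of all clusters were called lower.

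The members were not the only genes of the arm to sit low. Among 329 genes of 7q that are not members and lay above the olfactory receptor level, the median was -0.17 in A7 and -0.16 in G10, with 258 and 240 of them below the control. This held on either side of the members and between them: the 89 genes between the centromere and the first member had medians of -0.19 in A7 and -0.15 in G10, the 181 genes interspersed with the members -0.18 and -0.16, and the 59 genes beyond the last member -0.12 and -0.16. When these 329 genes and the 53 members were put in order and divided into 10 runs of 38 or 39 genes, every run had a negative median in both clones, from -0.25 to -0.10 in A7 and from -0.23 to -0.05 in G10. PCDNA3 cells differed from A375 cells by medians of -0.06 to 0.11 over the same runs.

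The short arm told the clones apart. The 216 genes of 7p above the level had a median of 0.05 in A7, with 134 of them above the control, and of -0.18 in G10, with 171 below it. The 4 A7 arrays had 7p medians of 0.05 to 0.08, and the 4 G10 arrays had -0.21 to -0.17, while the control arrays lay between -0.02 and 0.01. In A7 the low level thus covered 7q and not 7p, and in G10 it covered both arms. Over whole chromosomes, medians ran from -0.11 (chromosome 8) to 0.07 (chromosome 5) in A7 and from -0.19 (chromosome 11) to 0.26 (chromosome 21) in G10. Chromosome 7 as a whole, at -0.09 in A7 and -0.17 in G10, was the 3rd lowest of 23 in A7 and the 2nd lowest in G10.

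**Figure D2:**
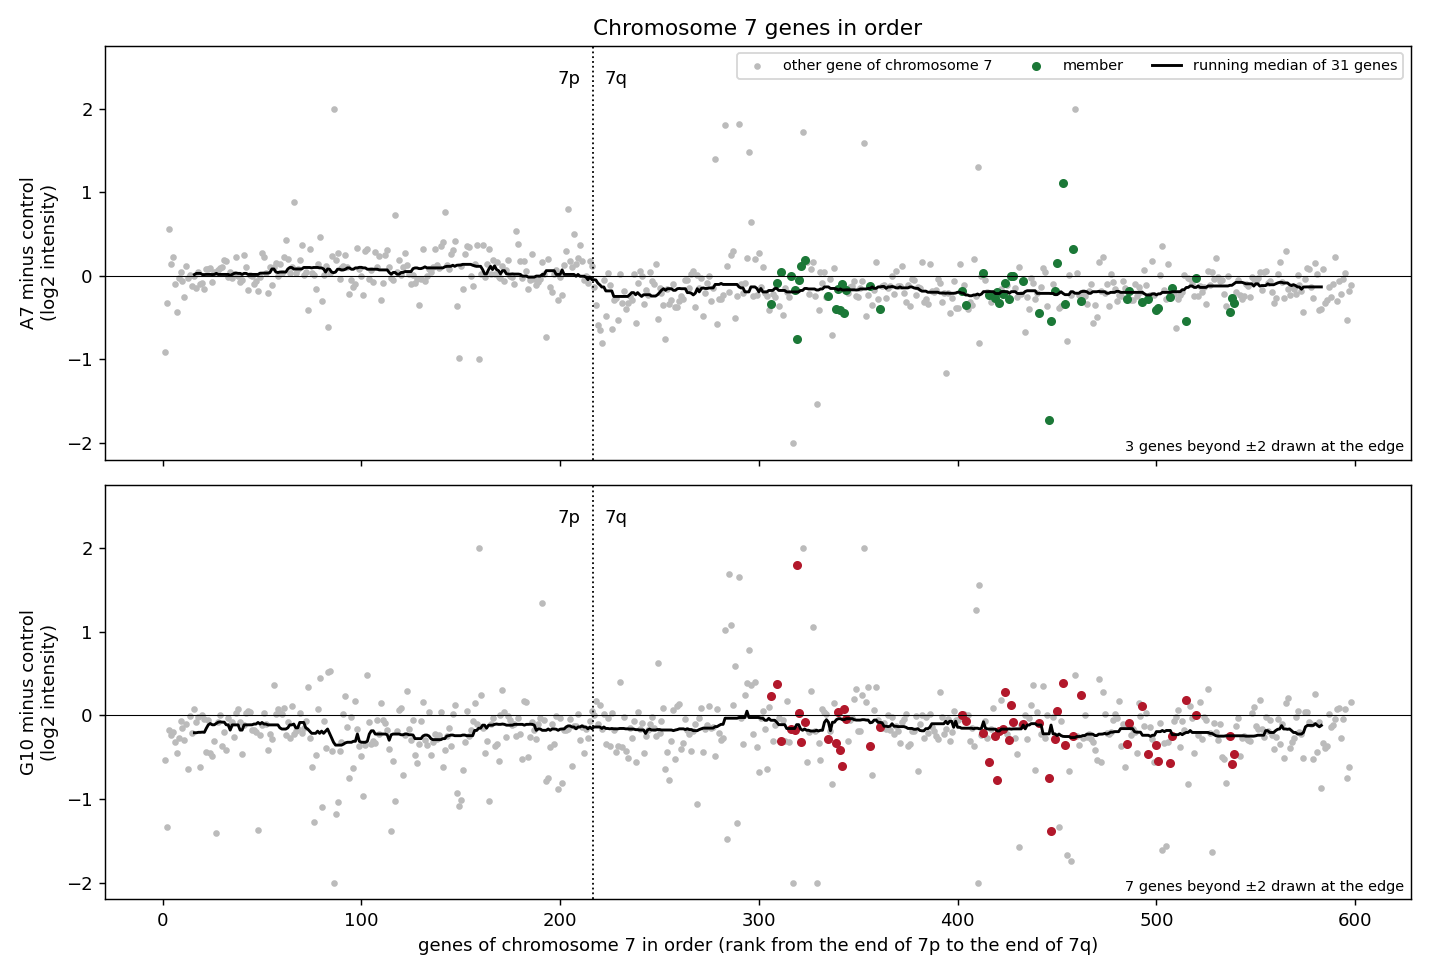
Log2 difference of A7 (top) and G10 (bottom) from the control for 598 genes of chromosome 7 in gene order, with members in colour, other genes above the olfactory receptor level in grey, and the running median of 31 genes in black. In A7 the running median steps down where 7q begins (dotted line), while in G10 it lies below 0 along nearly the whole chromosome.

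**Figure D3:**
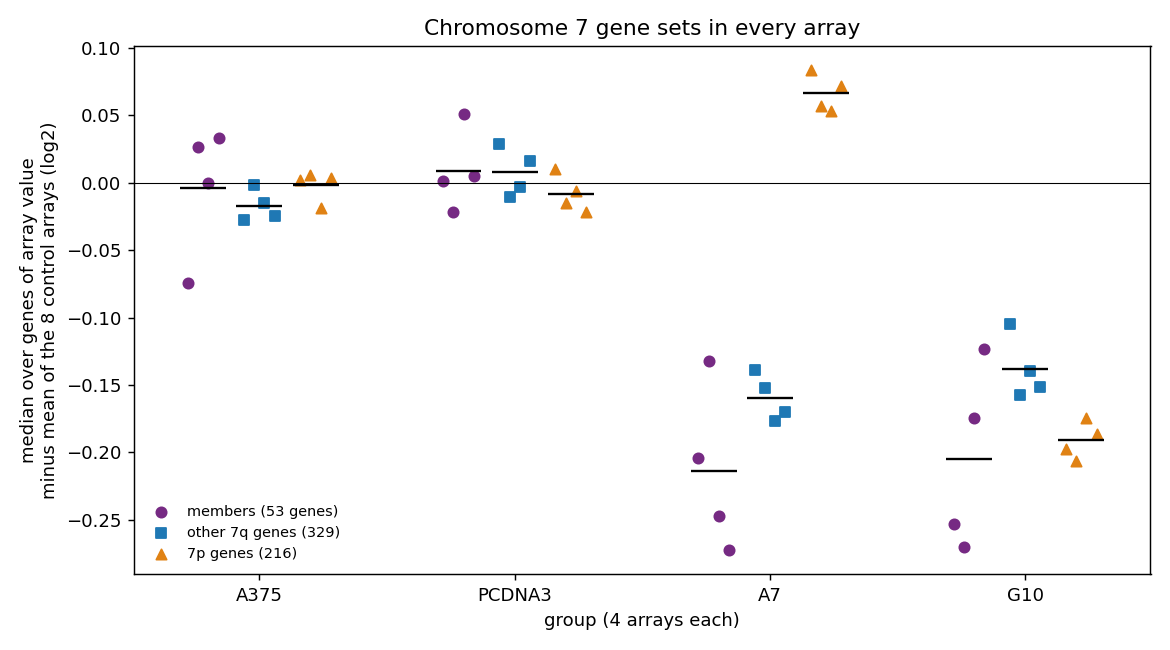
Median log2 difference from the mean of the 8 control arrays in every array, for the 53 measured members, 329 other 7q genes and 216 genes of 7p; each point is 1 array and black lines are means over the 4 arrays of a group. Members and other 7q genes lie below 0 in all 8 arrays of the clones, whereas 7p genes lie above 0 in A7 and below 0 in G10.

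The members fell into 3 stretches along the arm. The 20 measured members from AKAP9 to ORAI2, CDK6 included, had medians of -0.17 in A7 and -0.11 in G10, the 20 from NAPEPLD to POT1, CAV1 included, -0.20 in both, and the 13 from ZC3HC1 to PDIA4, EZH2 included, -0.28 and -0.34. All 13 of the last stretch were below the control in A7 and 10 of them in G10. Genes of the arm as a whole did not follow this order: in A7 the lowest of the 10 runs was the one nearest the centromere (-0.25), and the pair nearest the telomere had -0.10 and -0.13. Differences between stretches were not tested.

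CDK6, the kinase that with D cyclins phosphorylates the retinoblastoma protein in G1, did not follow the block in A7. Its log2 intensities were 8.75, 8.67, 8.95 and 9.06 in A375, 8.98, 9.27, 9.31 and 8.88 in PCDNA3, 9.04, 9.26, 8.95 and 8.89 in A7, and 7.94, 8.21, 9.45 and 9.09 in G10. The A7 values lay within the range of the controls, and G10 split, with replicates 1 and 2 below every other array and replicate 3 above all of them. The difference from the control was 0.05 ± 0.22 (SE) in A7 and -0.31 ± 0.22 in G10. Without G10 replicates 1 and 2 it turned to 0.29, and without replicates 3 and 4 it was -0.91.

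EZH2, the catalytic subunit of the PRC2 complex that methylates lysine 27 of histone H3, lay near the block's median in A7. It read 9.42, 9.26, 9.43 and 9.53 in A375, 9.60, 9.83, 9.98 and 9.64 in PCDNA3, 9.36, 9.33, 9.25 and 9.35 in A7, and 8.42, 8.78, 9.31 and 9.50 in G10. The 4 PCDNA3 arrays were above the 4 A375 arrays, A7 overlapped A375 only, and G10 again split, with replicates 1 and 2 lowest. The difference from the control was -0.27 ± 0.15 (SE) in A7 and -0.59 ± 0.15 in G10. Against A375 cells alone it was -0.09 in A7 and -0.41 in G10, so the choice of control moved the A7 value by more than 1.5 times. In G10 it was -0.18 without replicates 1 and 2 and -0.99 without replicates 3 and 4.

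CAV1, the scaffold protein of caveolae, was among the lowest members in both clones. It read 9.27, 9.62, 9.60 and 9.62 in A375, 9.45, 9.70, 9.97 and 9.32 in PCDNA3, 9.24, 9.0, 8.98 and 8.89 in A7, and 7.14, 7.20, 9.41 and 8.98 in G10. All A7 arrays lay below all controls, the highest A7 array by little, and G10 replicates 1 and 2 stood about 2 units under replicates 3 and 4. The difference from the control was -0.55 ± 0.34 (SE) in A7 and -1.39 ± 0.34 in G10, a 2.61-fold lower level. Without G10 replicates 1 and 2 it was -0.37, and without replicates 3 and 4 it was -2.40. CAV2, which forms caveolae with CAV1 and is its neighbour on the arm, could not be set beside it.

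The pairs of G10 arrays parted other members as well. In 17 of the 53 members the means of replicates 1 and 2 and of replicates 3 and 4 differed by more than 0.5, a gap seen in 20.2% of all genes above the level; in A7 it was 0 members, against 4.08% of genes. Among them were PUS7, ST7, ING3 and IFRD1, low in replicates 1 and 2, and AASS, HBP1 and NAPEPLD, low in replicates 3 and 4, all named here after their values were seen. Within groups, members did not rise and fall as 1 set. The median correlation of their deviations from the group mean over the 16 arrays was 0.07 for the 1275 pairs of 51 members. Over other 7q genes it was -0.01. The interquartile range was -0.28 to 0.40 for members and -0.30 to 0.30 for other 7q genes. A median near 0 cannot exclude subsets that moved together, such as those named above in G10. These correlations share the same arrays and are given as a description.

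BRAF, the kinase that carries signals from RAS to MEK, was not analysed here, so its place in the block is described only by its neighbours. The 3 genes above the level on either side of it in gene order were DENND2A, ADCK2 and NDUFB2 on the centromere side and MRPS33, AGK and DENND11 on the telomere side. In A7 they differed from the control by -0.24, -0.12 and -0.19, and by -0.14, -0.34 and 0.06. In G10 the differences were -0.23, 0.16 and -0.28, and -0.02, -0.05 and 0.31. Of these neighbours 5 of 6 were below the control in A7 and 4 of 6 in G10. MKRN1, the nearest measured member and an E3 ubiquitin ligase, was at -0.02 ± 0.12 (SE) in A7 and 0.01 ± 0.12 in G10, where it was -0.26 without replicates 1 and 2 and 0.28 without replicates 3 and 4.

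Of the pathway downstream of BRAF, 6 of 10 listed partners in the RAF kinase cascade had a value, with medians of 0.01 in A7 and -0.04 in G10. None passed the adjusted limit in A7, and in G10 MAP2K1 (MEK1) fell by 0.35 (limma, adjusted p = 0.00425). Of 13 genes that report MAPK output, 1 rose and 0 fell in A7, and 1 rose and 4 fell in G10, with medians of -0.12 and -0.13. Among all clusters 3.46% rose and 2.23% fell in A7, and 9.92% rose and 7.9% fell in G10. The highest difference among the 13 genes was 0.59 in A7 and 0.58 in G10. The falls in G10 included EGR1, an immediate early transcription factor (-0.999, adjusted p = 6.4e-05), SPRED1, an inhibitor of RAS signalling (-0.84, adjusted p = 1.6e-05), and CCND1, cyclin D1 (-0.63, adjusted p = 0.029).

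TES (testin, a LIM domain protein of focal adhesions) had the lowest difference of all members in A7. It read 9.23, 9.63, 9.34 and 9.56 in A375, 9.49, 9.66, 9.65 and 9.44 in PCDNA3, 7.79, 7.79, 7.70 and 7.80 in A7, and 8.50, 8.65, 8.81 and 9.06 in G10. The groups formed 3 separate levels, with A7 lowest, G10 between and both controls highest. The difference from the control was -1.73 ± 0.10 (SE) in A7, which is 3.31-fold lower, and -0.74 ± 0.10 in G10, which is 1.68-fold lower. TES lies next to CAV2 and CAV1 in the list, and it was low in all 4 arrays of both clones, including G10 replicates 3 and 4.

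TSPAN12, a tetraspanin of the Norrin and frizzled-4 receptor complex, went against the block. It read 6.55, 6.33, 6.84 and 6.84 in A375, 6.06, 6.78, 6.84 and 6.46 in PCDNA3, 7.67, 7.53, 7.80 and 7.77 in A7, and 6.98, 7.07, 6.80 and 7.06 in G10. Every A7 array was above every other array, and G10 overlapped the controls. The difference was 1.11 ± 0.14 (SE) in A7, a 2.15-fold higher level, and 0.39 ± 0.14 in G10.

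SGCE (epsilon-sarcoglycan), an imprinted gene of the dystrophin-associated complex, was the member in which the clones parted most. It read 4.28, 4.67, 4.53 and 4.51 in A375, 4.66, 4.82, 4.46 and 4.74 in PCDNA3, 3.85, 3.78, 3.89 and 3.80 in A7, and 5.73, 6.38, 6.62 and 6.79 in G10. Only the G10 arrays were above the olfactory receptor level of 5.18, and they exceeded every other array. Taken against that level, SGCE was at least 1.20 log2 units higher in G10 than in the control, with a measured difference of 1.79 ± 0.15 (SE). No size is given for A7, where both sides were under the level, and none for PEG10, the imprinted neighbour of SGCE, which was under it in all groups. COL1A2, a collagen chain gene from the fibroblast markers that lies between BET1 and CASD1 and is not a member, fell by 3.23 in A7 and fell by 4.14 in G10 (limma, adjusted p = 1.9e-06 and 3.3e-08). COL1A2 thus lay far below the block's median in both clones, and SGCE far above it in G10. BET1 was at -0.0009 in A7 and -0.16 in G10, and CASD1 at -0.18 in both.

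**Figure D4:**
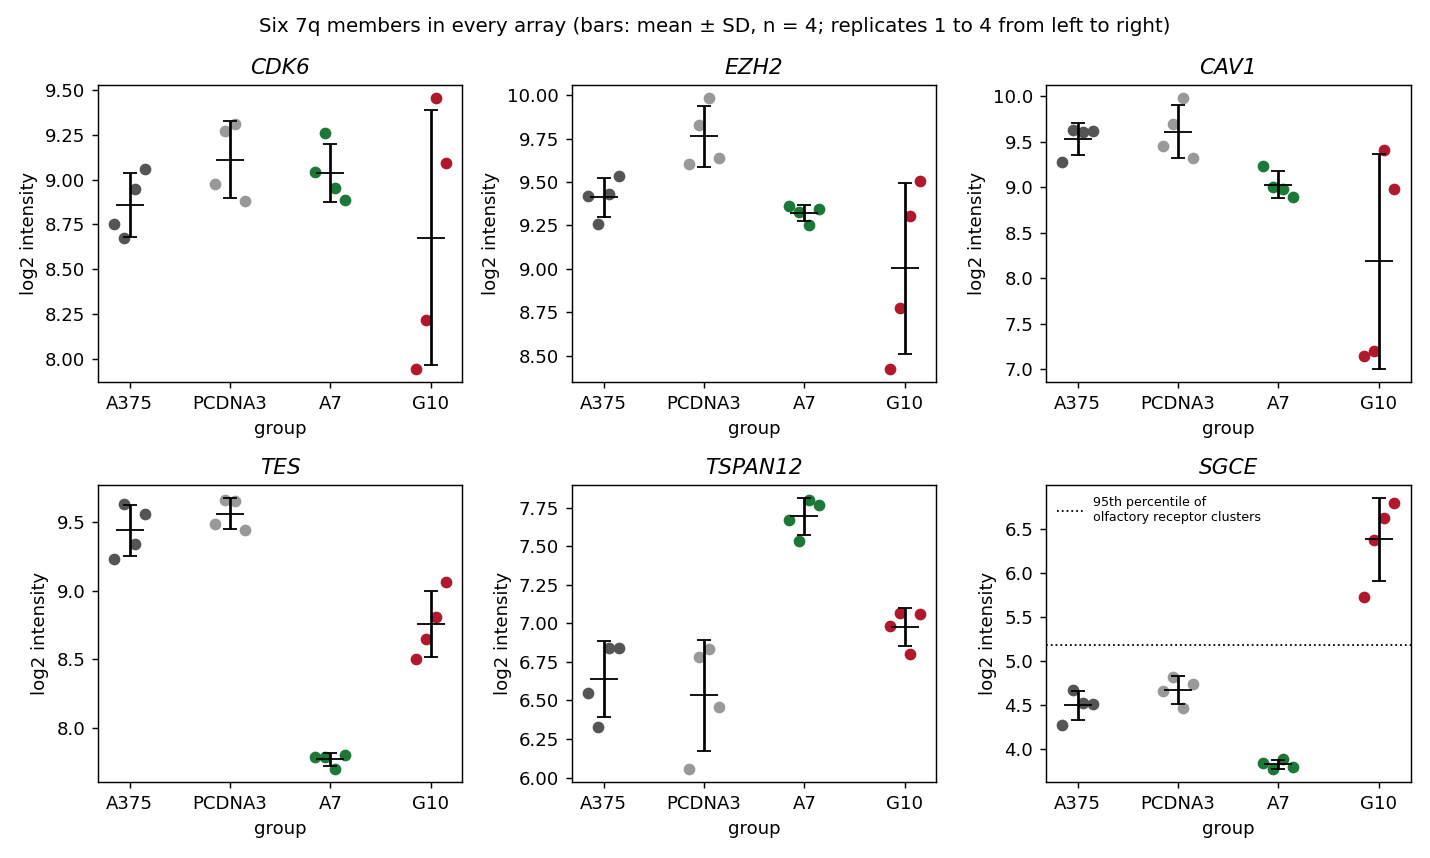
Log2 intensity of CDK6, EZH2, CAV1, TES, TSPAN12 and SGCE in each of the 16 arrays, with mean ± SD (n = 4) and replicates 1 to 4 drawn from left to right in each group; the dotted line in the SGCE panel is the olfactory receptor level of 5.18. CDK6, EZH2 and CAV1 are split within G10, TES is low in both clones, TSPAN12 is high in A7, and SGCE is above the dotted line in G10 alone.

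The other members at the low end in A7 were HIPK2, a kinase that activates p53 (-0.54 ± 0.12, SE), and PDAP1, a phosphoprotein associated with platelet-derived growth factor (-0.45 ± 0.11). At the high end were AASS, an enzyme of lysine breakdown (0.31 ± 0.15), DYNC1I1, a dynein intermediate chain (0.19 ± 0.07), ST7 (0.15 ± 0.17) and the lactonase PON2 (0.12 ± 0.08). Each of these 4 overlapped the control arrays. In G10, PUS7, a pseudouridine synthase (-0.77 ± 0.15), TES and ARPC1B (-0.60 ± 0.11) followed CAV1 at the low end, with EZH2. GATAD1, a chromatin-bound zinc finger protein (0.38 ± 0.09), NAMPT, the rate-limiting enzyme of NAD salvage (0.28 ± 0.10), and POT1, a telomere-binding protein (0.24 ± 0.10), followed SGCE and TSPAN12 at the high end. Without G10 replicates 1 and 2, NAMPT was at 0.05, GATAD1 at 0.19, POT1 at 0.14, PUS7 at -0.35 and ARPC1B at -0.84. Without replicates 3 and 4 they were at 0.51, 0.57, 0.35, -1.18 and -0.37. GATAD1 was above all controls in all 4 G10 arrays, at 7.98, 7.91, 7.55 and 7.59 against 7.26 to 7.46. NAMPT had 2 clusters and KLHDC10 had 3, of which the brightest was used.

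By function, the members of caveolae, actin and adhesion stood lowest. Their 8 measured members had medians of -0.34 in A7 and -0.44 in G10, with 4 called lower and 1 higher in A7 (2.23% and 3.46% of all clusters), and 6 lower and 1 higher in G10 (7.9% and 9.92%). The 4 in A7 include SGCE, under the olfactory receptor level in A7 and the control. The 10 members of chromatin and transcription were all below the control in A7 (median -0.30) and 8 of them in G10 (-0.29). The 8 members of protein folding and turnover were all below the control in A7 (-0.20) and 6 of them in G10 (-0.29). The 6 metabolic enzymes were evenly divided in A7 (-0.01) and 5 of them were below the control in G10 (-0.19). The 9 signalling members had a median of -0.28 in A7 and 0.06 in G10. The 7 members of membrane and motor traffic had medians of -0.22 and -0.16, and the 5 of RNA, telomere, pore and retroelement-derived genes -0.19 and -0.04. These groups were set up with earlier results of these data known, and their differences were not tested.

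Many members are single subunits of complexes whose other subunits are coded elsewhere, which allowed each to be set beside its partners. Over 15 complexes, 17 members had a median of -0.32 in A7 and their 97 measured partners 0.05. All 17 were below the median of their own partners in A7, and 14 were below every partner. These counts rest on the average control, and ING3, for one, was low in A7 against PCDNA3 cells only. In G10 the medians were -0.35 and -0.004, 15 of the 17 were below the median of their partners, and 3 below every partner. The members were chosen with these contrasts known, so the gap describes them and is not evidence of a rule. Of all 143 partners measured, those of signalling pathways included, 11 (7.69%) rose and 1 (0.70%) fell in A7. Among all clusters 3.46% rose and 2.23% fell. In G10, 25 partners (17.5%) rose and 31 (21.7%) fell, where 9.92% and 7.9% of all clusters did. Partner values in G10, here and for the BRAF pathway above, are over all 4 arrays and were not split by pair. A gap over 0.5 between the G10 pairs was seen in 20.2% of genes above the level.

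The ARP2/3 complex nucleates branched actin and uses ARPC1A or ARPC1B as 1 of its subunits. ARPC1A read 11.46, 11.46, 11.66 and 11.60 in A375, 11.63, 11.56, 11.62 and 11.67 in PCDNA3, 11.15, 11.08, 11.23 and 11.23 in A7, and 11.14, 11.10, 11.22 and 11.20 in G10. Both clones were below all controls, with nearly equal differences of -0.41 ± 0.06 (SE) in A7 and -0.42 ± 0.06 in G10. ARPC1B differed by -0.10 ± 0.11 in A7 and -0.60 ± 0.11 in G10. Of 5 measured partners, none passed the adjusted limit in A7, and in G10 ARPC2 fell by 0.25 and ARPC3 rose by 0.24 (adjusted p = 0.024 and 0.025). CAPZA2, an actin capping subunit, was at -0.18 ± 0.08 in A7 and -0.28 ± 0.08 in G10, and its partner CAPZA1 fell by 0.40 in G10 (adjusted p = 0.0012).

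Among 7 partners of CAV1 in caveolae, none passed the limit in A7 and 3 fell in G10. These were CAVIN3 (-0.86, adjusted p = 0.00041) and CAVIN4 (-0.41, adjusted p = 0.041), which are coat proteins of caveolae, and PACSIN2 (-0.71, adjusted p = 1.1e-05), which bends membranes. Of 10 partners of EZH2 in PRC2, none passed the limit in A7, and in G10 3 rose and 3 fell. EZH1, the paralogue that can replace EZH2 in the complex, rose by 0.67 (adjusted p = 0.00028), PHF1 rose by 0.57 (adjusted p = 0.0061) and the core subunit EED fell by 0.63 (adjusted p = 0.0099). Of 18 measured genes around CDK4, CDK6 and RB, CDK2 rose by 0.45 in A7 (adjusted p = 0.0051), and in G10 3 rose and 1 fell, among them the CDK inhibitor CDKN1A (0.99, adjusted p = 0.00033).

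DLD, the shared E3 subunit of the 2-oxo acid dehydrogenases, was at -0.06 ± 0.09 (SE) in A7 and -0.10 ± 0.09 in G10. Of its 9 partners 4 rose in A7, and in G10 3 rose and 1 fell, the latter being DLAT, the E2 subunit of pyruvate dehydrogenase (-1.40, adjusted p = 5.0e-10). EXOC4, a subunit of the exocyst that tethers vesicles, was at -0.32 ± 0.12 in A7, below all 8 partners, of which 2 rose. EXOC4 averaged 9.77 in A375, 9.40 in PCDNA3 and 9.26 in A7, so its gap in A7 was smaller against PCDNA3 cells. In G10 it was at 0.12 ± 0.12, or -0.17 without replicates 1 and 2 and 0.41 without replicates 3 and 4, and 5 partners rose, EXOC1 by 0.60 (adjusted p = 0.00037). NUP205, of the inner ring of the nuclear pore, was at -0.38 ± 0.10 in A7 and -0.54 ± 0.10 in G10 (-0.29 without replicates 1 and 2, -0.80 without replicates 3 and 4), and 3 of its 4 partners fell in G10, NUP188 by 0.76 (adjusted p = 0.0030).

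Further subunits showed the same order in A7, with the member low and the partners near 0. CNOT4, a ubiquitin ligase of the CCR4-NOT deadenylase, was at -0.42 ± 0.09 (SE) in A7 and -0.35 ± 0.09 in G10, whereas its partner CNOT7 rose by 0.47 in A7 (adjusted p = 0.015). CUL1, the scaffold of SCF ubiquitin ligases, was at -0.43 ± 0.10 and -0.25 ± 0.10, the latter 0.00 without G10 replicates 1 and 2 and -0.50 without replicates 3 and 4, and FBXW7 rose by 0.44 in G10 (adjusted p = 0.028). TRRAP and ING3, of the NuA4 acetyltransferase, were at -0.40 ± 0.12 and -0.33 ± 0.16 in A7 and -0.33 ± 0.12 and -0.36 ± 0.16 in G10, and MEAF6 fell by 0.41 in G10 (adjusted p = 0.036). ING3 averaged 8.11 in A375, 8.79 in PCDNA3, 8.12 in A7 and 8.09 in G10. Its means in the clones were thus low against PCDNA3 cells and level with A375 cells. Without G10 replicates 1 and 2, ING3 was at 0.04 and TRRAP at -0.17, and without replicates 3 and 4 they were at -0.76 and -0.49. TRRAP was uneven in A7 too, at -0.65 without A7 replicates 1 and 2 and -0.16 without A7 replicates 3 and 4. A7 replicate 2, at 8.43, lay within the control range of 8.33 to 8.57. RINT1, which acts in tethering at the endoplasmic reticulum, was at -0.32 ± 0.07 and -0.19 ± 0.07, and its partner ZW10 fell by 0.66 in G10 (adjusted p = 0.0030).

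PSMC2, an ATPase of the proteasome, was at -0.23 ± 0.08 (SE) in A7 and -0.56 ± 0.08 in G10, where PSMC3 fell by 0.65 (adjusted p = 0.0021). COPS6, of the COP9 signalosome, was at -0.12 ± 0.06 and -0.37 ± 0.06, and COPS7B fell by 0.47 in G10 (adjusted p = 0.0020). COG5, a Golgi tether, was at 0.00 ± 0.10 and -0.08 ± 0.10, the latter -0.25 without G10 replicates 1 and 2 and 0.10 without replicates 3 and 4, and COG6 rose by 0.54 in G10 (adjusted p = 0.0062). POT1 was at -0.31 ± 0.10 in A7 and was above 4 of its 5 shelterin partners in G10, of which TINF2 rose by 0.43 (adjusted p = 0.017). KRIT1 and COPG2, which had no value, had partners CCM2 and COPZ2: CCM2 fell by 0.50 in G10 (adjusted p = 0.0027) and itself lies on 7p, and COPZ2 of the COPI coat rose by 2.59 in G10 (adjusted p = 1.1e-09).

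**Figure D5:**
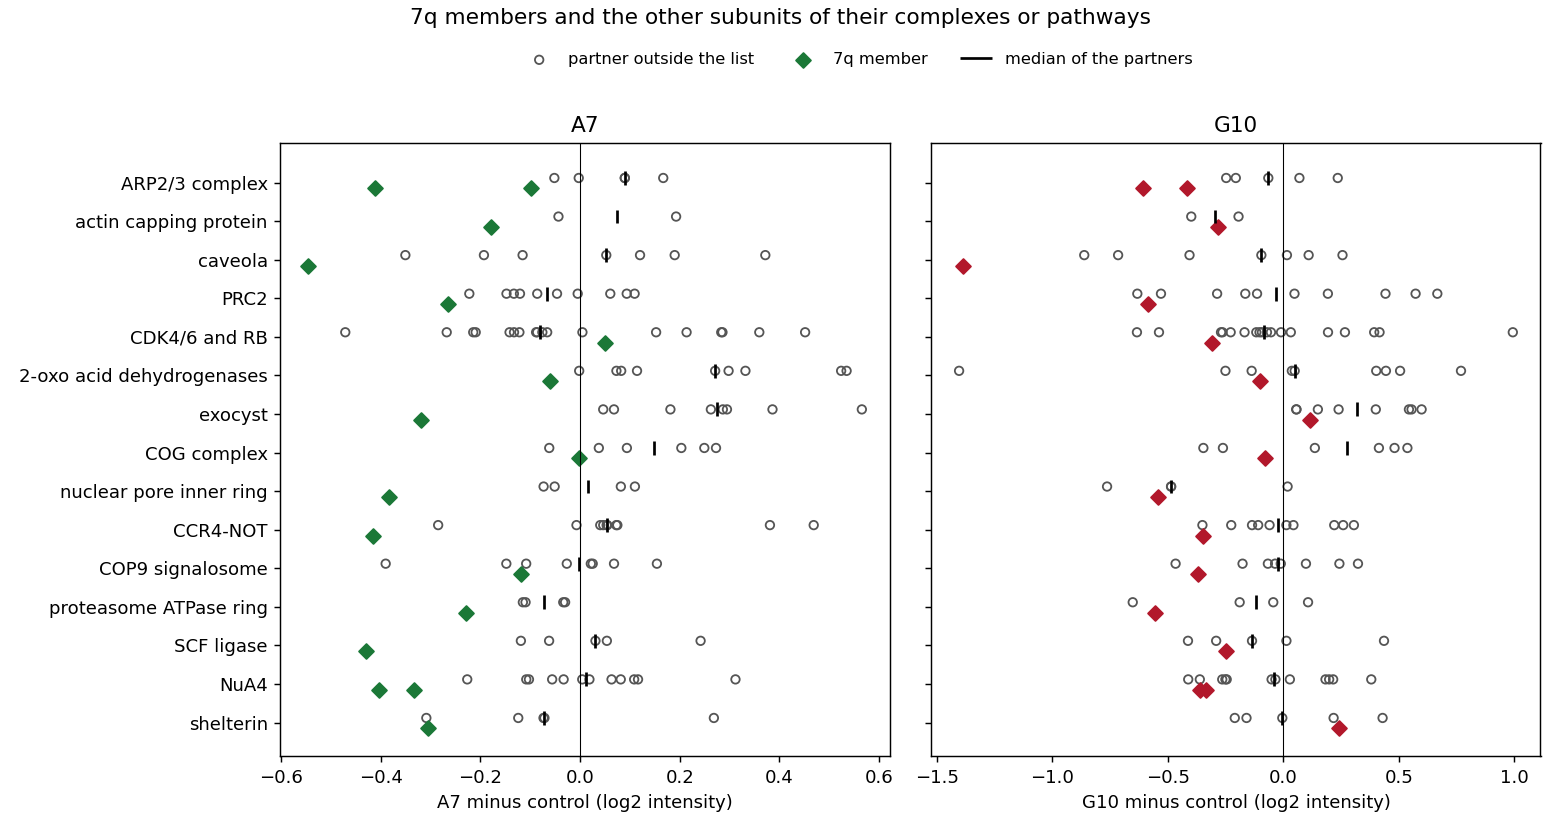
Log2 difference from the control in A7 (left) and G10 (right) for members (filled diamonds) and for the partners in the same complex or pathway that lie outside the list (open circles), with the partners' median as a black tick. In A7 the diamonds lie left of the tick in every row but that of CDK6, and in G10 CAPZA2 and POT1 lie to the right of it.

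Set against each other, G10 and A7 did not differ as a block. The median difference of the 53 members was -0.01, with 9 higher and 8 lower in G10 at the adjusted limit, where 7.83% of all clusters were higher and 7.38% lower. Single members nonetheless parted widely, from -0.84 ± 0.39 (SE) for CAV1 to 0.98 for TES, and SGCE was at least 1.20 higher in G10. Without G10 replicates 1 and 2 the median was 0.11, CAV1 turned from -0.84 to 0.17 and EZH2 from -0.32 to 0.08.

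Between PCDNA3 and A375 cells no shift of the block was detected. The median difference of PCDNA3 from A375 cells over the 53 members was 0.05, and 0 members passed the adjusted limit, as 0.123% of all clusters did (limma). At an unadjusted p under 0.05 there were 8 members, or 15.1% of them, where 12.6% of all clusters were past that limit. The largest difference was that of HBP1, a transcriptional repressor of the HMG box family. It read 9.70, 10.20, 9.62 and 9.88 in A375 and 9.29, 8.90, 8.82 and 9.18 in PCDNA3, a difference of -0.80 (limma, adjusted p = 0.074), with all PCDNA3 arrays below all A375 arrays. CDK6 differed by 0.25 (adjusted p = 0.74), EZH2 by 0.35 (adjusted p = 0.44) and CAV1 by 0.08 (adjusted p = 0.96). With array weights, 3 members were called lower and 1 higher, so the count of 0 did not hold under every setting. The share of all clusters called with array weights is not given here, so these counts cannot be set against it. It held for members called lower in 11 of 16 settings and for those called higher in 14 of 16.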

How the data were processed

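RNA of 16 cultures was hybridised to Affymetrix Human Gene 1.0 ST arrays. The deposited values were log2 intensities of 33297 transcript clusters, which the authors had made by robust multi-array averaging (RMA). No source used here gives the RMA version or the build of the probes. Groups were taken from the labels. Of the clusters, 19460 carried 1 gene symbol, 1754 several and 12083 none, and of several clusters per gene the one with the highest mean was used. Gene order came from RefSeq (GRCh38.p14). RMA compresses small differences and sets all arrays to 1 distribution, so a shift is relative to the other genes of an array.

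Differences were fitted with limma 3.58.1 in R 4.3.3 (lmFit and eBayes, 1 mean per group, all 16 arrays, 3.57 prior degrees of freedom), with p-values adjusted by Benjamini-Hochberg over all clusters and a limit of 0.05. As control served the mean of both control groups' means. The members, function groups and partner lists were chosen with earlier results of these data known. Members were therefore given no p in comparisons with A7 or G10. Named were BRAF, CDK6, EZH2 and CAV1, the 5 members at either end in each clone, members of complexes, up to 3 partners per list with the largest called difference, and the member with the largest difference between PCDNA3 and A375. The fit was tested on simulated data. Alternatives were other normalizations, variance models, filters and controls, a replicate block, and each array left out in turn. Replicate numbers were not treated as pairs in the main fit. With 4 arrays in each group, the number of arrays limits the precision. Figures were drawn with matplotlib 3.10.9.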

Additional observations from a re-analysis of the deposited data

Results flagged for a closer look

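Of 72 groups of 4 array values tested for a sample far from the others, 4 held one, and chance gives about 1 in 20. The gap to the nearest array, as a share of the group's range, was 0.935 for CAV1 in A375 replicate 1 (9.27 against 9.60 to 9.62), 0.909 for GATAD1 in PCDNA3 replicate 2 (7.33 against 7.40 to 7.41), 0.879 for DYNC1I1 in PCDNA3 replicate 4 (6.68 against 6.84 to 6.86) and 0.872 for TES in A7 replicate 3 (7.70 against 7.79 to 7.80).

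The partner genes named above had been picked for their large called differences from the control. The same arrays then gave the difference between the clones, so small p-values were favoured and those below only describe the picked genes. The genes listed here passed the adjusted limit between the 2 clones (limma, adjusted p over all clusters). Of all clusters, 7.83% passed it upward and 7.38% downward. CAVIN4, EED, CCND1, COPS7B, COG6, EXOC1, CNOT7, FBXW7, MEAF6 and CCM2, also named above, did not pass it. In the actin complexes, the difference of G10 from A7 was -0.41 for ARPC2 (adjusted p = 0.00235), -0.35 for CAPZA1 (0.0089) and 0.29 for ARPC3 (0.0213). In caveolae, CAVIN3 differed by -1.23 (adjusted p = 6.88e-05) and PACSIN2 by -0.83 (1.07e-05). In PRC2, EZH1 differed by 0.79 (adjusted p = 0.000265) and PHF1 by 0.79 (0.00181). Around CDK6, CDKN1A differed by 0.63 (adjusted p = 0.0268) and CDK2 by -0.46 (0.0046). In the RAF cascade and its output, MAP2K1 differed by -0.42 (adjusted p = 0.00371), EGR1 by -0.89 (0.00073) and SPRED1 by -0.68 (0.000464). Elsewhere, PSMC3 differed by -0.54 (adjusted p = 0.0232), COPZ2 by 3.03 (8.65e-10), DLAT by -1.48 (1.08e-09), NUP188 by -0.71 (0.0145), TINF2 by 0.55 (0.01) and ZW10 by -0.64 (0.0117).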

How the results depend on the processing

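The members' median stayed below the control in both clones under all alternatives, from -0.29 to -0.18 in A7 and from -0.25 to -0.14 in G10. Counts of called members moved more. The share of all clusters called also changes with the setting. Shares called lower are given above for the clones without pairs of arrays. Without G10 replicates 3 and 4, 10.8% of all clusters were called higher in G10. Shares for the other settings are not given here. A change in a count below can thus follow the number of calls over all clusters, and is not read as a change of the block. In A7 the members called lower numbered 12, and 19 with only the arrays compared, 7 to 12 with 1 array left out, 5 without A7 replicates 1 and 2 and 2 without A7 replicates 3 and 4; those called higher numbered 1, and 2 with A375 cells alone as control. In G10 those called lower numbered 17, and 11 without G10 replicates 1 and 2. Those called higher in G10 numbered 2, and 4 with median centring, 5 with array weights, 4 over clusters above the olfactory receptor level, 1 over members above that level, 2 to 4 with 1 array left out and 6 without G10 replicates 3 and 4. Leaving out pairs of arrays and members under the level was chosen after seeing the data.

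Between G10 and A7 the members' median reversed from -0.01 to 0.11 without G10 replicates 1 and 2. The members called lower in G10 than in A7 numbered 8, and 4 with median centring, 2 with only the arrays compared, 4 to 8 with 1 array left out, 2 and 1 without A7 replicates 1 and 2 or 3 and 4, and 4 and 13 without G10 replicates 1 and 2 or 3 and 4. Between PCDNA3 and A375 the median was 0.016 to 0.058 with 1 array left out. The members called lower there numbered 0, and 1 with further quantile normalization, 1 with an intensity trend, 3 with array weights, 2 over clusters above the level and 1 with only the arrays compared; those called higher were 1 with array weights and 1 with only the arrays compared.

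The median of other 7q genes was -0.19 in A7 with further quantile normalization, and in G10 it was -0.12 with median centring, -0.13 with A375 cells alone and -0.13 without G10 replicates 3 and 4. That of 7p in A7 was 0.044 to 0.075 with 1 array left out, 0.069 without A7 replicates 1 and 2 and 0.064 without 3 and 4; in G10 it was -0.14 with median centring, -0.21 with A375 cells alone, -0.17 with PCDNA3 cells alone, -0.20 to -0.18 with 1 array left out and -0.21 without G10 replicates 3 and 4. The partners called in A7 numbered 12, 5 to 13 with 1 array left out and 2 without A7 replicates 1 and 2. Those called in G10 numbered 56, 38 to 60 with 1 array left out and 40 to 71 under the other alternatives.

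Same-numbered arrays deviated together weakly or not at all (6 of 24 pairs correlated over 0.1, from -0.20 to 0.31). For replicates 1 to 4, A375 and G10 arrays correlated at 0.07, 0.27, 0.15 and 0.11, and A7 and G10 arrays at -0.20, 0.07, -0.12 and -0.10. With the replicate block, 11 members were called lower and 1 higher in A7, 17 and 2 in G10, 7 lower and 9 higher in G10 against A7, and 0 in PCDNA3 against A375, with 9 partners called in A7 and 54 in G10. Alternatives for BRAF were not run, since no value was assigned to it. The causes of these changes were not tested.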
